A study of Mus musculus with 24 samples.

Results

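Levels of 10 genes of the insulin response were followed in mouse inguinal white adipose tissue, the subcutaneous fat depot of the groin. The genes were chosen by name, with earlier results of these data known: Insr, Irs1, Irs2, Pik3r1, Akt2, Foxo1, Tbc1d4, Slc2a4, Hk2 and Pdk4. All 10 were among the 16118 protein-coding genes of the deposited table, and all 10 passed the filter on low values that left 16005 genes for testing. Poly(A) RNA of 24 mice was sequenced, with 1 library for each animal and 4 animals in each of 6 groups. Both sexes were sampled at postnatal day 21 (p21) and at day 28 (p28). The p28 animals either left their mother at day 21 (standard weaning, SW) or remained with her (delayed weaning, DW). The p21 animals also carry the SW label, and the labels name no strain, genotype or other treatment. Titles of the p21 libraries give p28, and the age labels and library names, which give p21, were followed. The comparison of SW with DW asks what a longer stay with the mother does to this depot. The labels do not say which animals shared a litter, so the p-values measure the spread between these animals only.

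Insulin binds its receptor on the fat cell surface, and the receptor phosphorylates substrate proteins that recruit phosphoinositide 3-kinase (PI3K). The lipid made by PI3K activates Akt kinases, which release the brake that holds vesicles of the glucose transporter GLUT4 inside the cell and shut the transcription factor FoxO1 out of the nucleus. Glucose that enters is trapped by hexokinase, and pyruvate dehydrogenase kinases decide whether the pyruvate made from it is oxidised in mitochondria. Suckling pups live on milk, which is rich in fat, and weaning moves them to a diet rich in carbohydrate. Most steps of this pathway are set by phosphorylation and protein movement, which RNA levels do not measure.

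Values are the authors' normalised values, read numbers divided by a factor for each library. The recovered reads per library ranged from 57600711 to 302145813, and no member had fewer than 1169 reads in any library. The defining fat cell markers Adipoq, Plin1, Fabp4 and Cidec were high in every library, with a lowest value of 306 (Cidec in a DW female). The DW females 82 and 83 lay apart from the other animals on the second principal component, and p21 male 53 and SW male 84 had the fewest detected genes, 14054 and 15497. Where the call of a member ended without either pair of libraries, the values without them are given beside it. For other genes of the pathway such values are given for some calls only. Skeletal muscle RNA varied widely: the summed value of 10 muscle markers ran from 7.31 to 586 in p21 males, from 466 to 7305 in SW males and from 351 to 7486 in DW males. In females it ran from 7.51 to 1714 at p21, from 409 to 3568 after SW and from 4.68 to 2119 after DW, and Myh2 and Myh4 were listed at 0 in a p21 male. Of these 10 markers, 8 were called higher at p28 than at p21 in SW males and 8 in DW males, against 1 in SW females and 0 in DW females. Slc2a4, Hk2, Pdk4, Akt2 and Tbc1d4 are also active in skeletal muscle. In a bulk sample, fewer cells of a type and less RNA per cell cannot be told apart.

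Per kilobase of exon (GENCODE M21), Pdk4 had the highest mean level of the 10 genes and Irs2 the lowest. The mean of the 6 group means was 87.4 per kilobase for Pdk4, 61.05 for Slc2a4, 33.7 for Akt2, 31.4 for Pik3r1 and 30.0 for Hk2. It was 16.0 for Foxo1, 14.1 for Irs1, 12.3 for Tbc1d4, 8.44 for Insr and 5.29 for Irs2. Akt2, Pik3r1 and Hk2 are close neighbours in this order, and their group means overlap (28.6 to 37.8, 18.7 to 44.6 and 25.3 to 39.5 per kilobase). Those of Pdk4 and Slc2a4 overlap (60.3 to 129.8 and 46.1 to 70.6), as do those of Foxo1, Irs1 and Tbc1d4, while Insr and Irs2 lie below them without overlap.

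**Figure D1:**
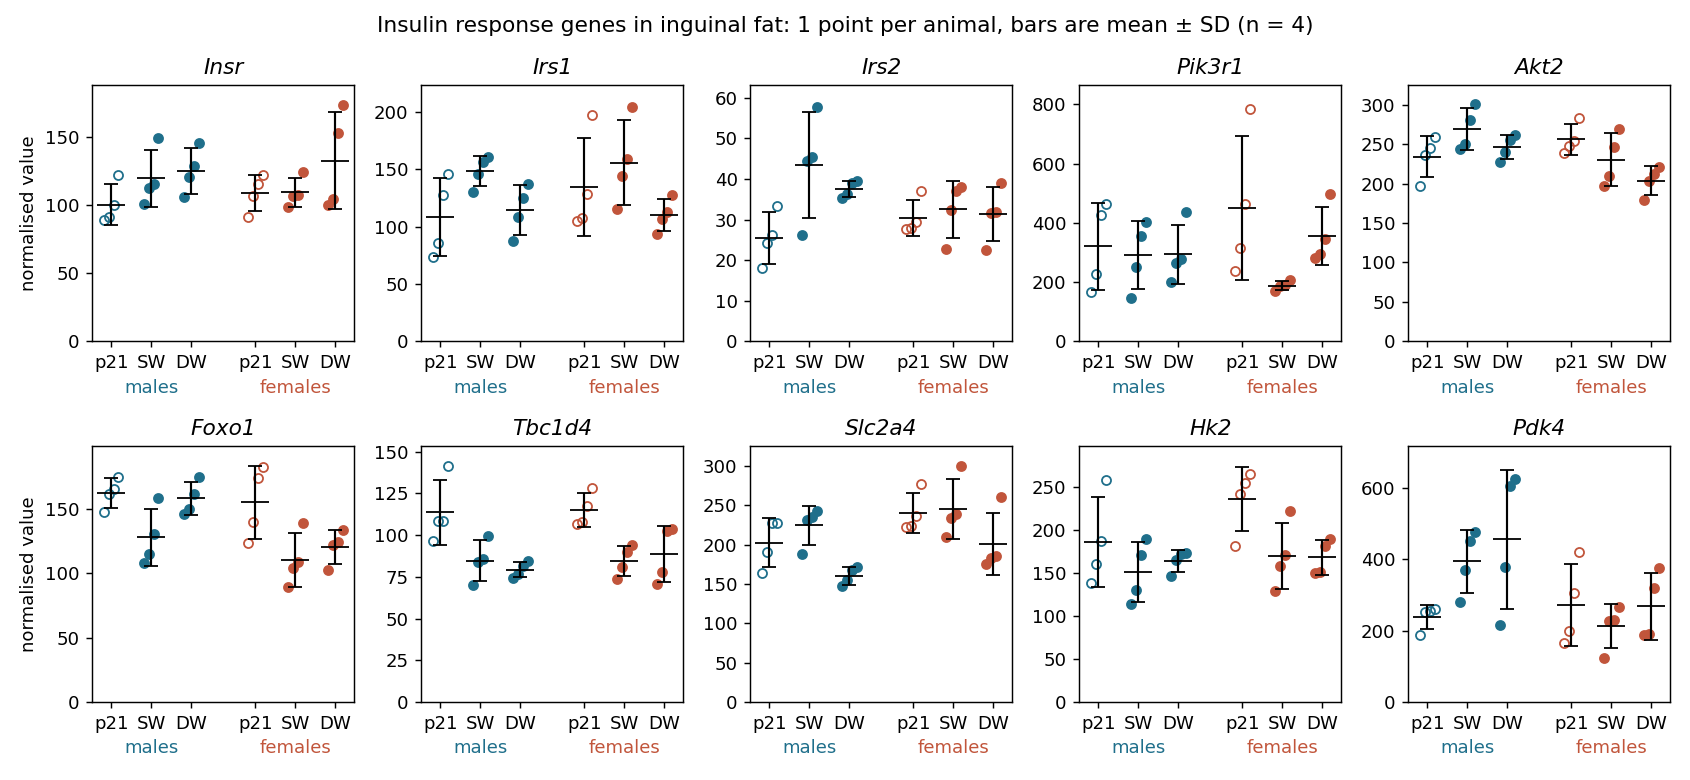
Normalised value (y axis, linear from 0) of each of the 10 genes in each animal, by group (x axis), with males in blue, females in red, p21 animals as open circles, and the mean and SD of 4 animals as bars. The 4 DW males lie below all 4 SW males for Slc2a4, and the 4 SW females lie close together and low for Pik3r1.

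The clearest weaning difference was a lower level of Slc2a4, the gene of GLUT4, after DW. Averaged over both sexes, Slc2a4 was the 1 member of 10 called by limma at a Benjamini-Hochberg adjusted p under 0.05, where 2.21% of all tested genes were called. Within 1 sex no member was called for weaning: 0 of 10 in males, where 0.256% of genes were called, and 0 of 10 in females, where 1.27% were. At an unadjusted p under 0.05 the counts were 2 of 10 in males, beside 6.94% of all genes, and 3 of 10 in females, beside 18.9%. EdgeR and DESeq2 also called 0 of 10 in each sex. Over all genes edgeR called 29 in males and 71 in females, and DESeq2 called 114 and 290.

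Between p21 and p28 more members were called. In SW males Irs2 rose and Tbc1d4 fell, so 2 of 10 members were called against 11.9% of all genes. In SW females Tbc1d4, Pik3r1 and Foxo1 fell, which makes 3 of 10 against 11.6%. After DW, 1 of 10 was called in males, Tbc1d4, which fell, against 15% of all genes, and 1 of 10 in females, Akt2, which fell, against 12.1%. The p21 animals serve in the SW and DW comparisons of the same sex, and the SW animals in both the age and the weaning comparison, so these calls are not independent of each other. Over the 10 members the median change was 0.18 on the log2(value + 1) scale in SW males and -0.24 in SW females, beside medians of 0.015 and 0.012 over all tested genes.

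**Figure D2:**
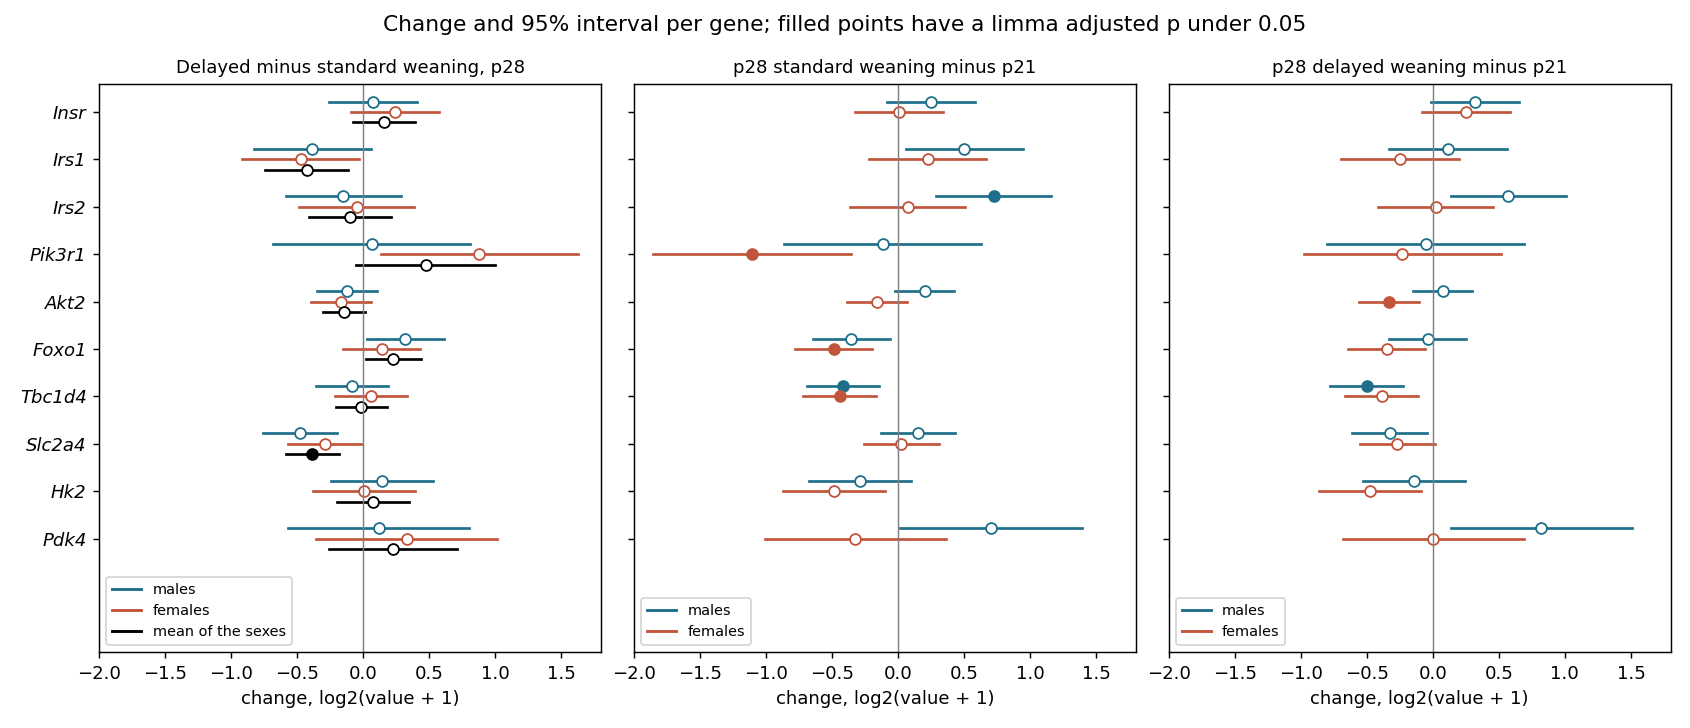
Change of each gene on the log2(value + 1) scale (x axis) with its 95% interval from limma, for weaning at p28 (left), p21 to p28 with SW (middle) and p21 to p28 with DW (right), in males (blue), females (red) and the mean of the sexes (black). Filled points mark an adjusted p under 0.05: Slc2a4 on the left, Irs2, Tbc1d4, Pik3r1 and Foxo1 in the middle, Tbc1d4 and Akt2 on the right.

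Insr, at chr8:3122061-3279617 of GRCm38, minus strand, encodes the insulin receptor, the first protein of the pathway. Its group means lay between 100.4 ± 15.1 (SD, n = 4) in p21 males and 133 ± 36.0 (SD, n = 4) in DW females, and no comparison called it. The wide spread in DW females came from animals 82 and 83, at 153 and 173, while animals 76 and 77 were at 100.4 and 105, within the range of the SW females (98.7 to 124). The change from SW to DW was 0.069 in males, with a 95% interval from -0.26 to 0.40, and 0.24 in females, from -0.09 to 0.58.

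Irs1 (chr1:82233101-82291416 of GRCm38, minus strand) and Irs2 (chr8:10984681-11008458 of GRCm38, minus strand) encode the insulin receptor substrates, the docking proteins that pass the signal to PI3K. Irs2 transcription is known to be repressed by insulin in liver and to be raised by FoxO1, and its promoter carries an insulin response element beside an E-box, a site for helix-loop-helix factors. The RefSeq promoter table (GRCm38.p6, from 250 bases before to 50 after a gene's start) held 8 of the 10 members in 12 windows, with no entry for Slc2a4 and Insr. Irs1 and Irs2 were the members whose windows held CACGTG (the E-box) or TGTTTTG (the core of the element), searched on both strands, so their stretches are shown, with the joined motifs in capitals. Both lie on the minus strand, and positions count from the start used in the promoter table. For both genes that start lies upstream of the GENCODE start in the gene coordinates given above.
Irs1, chr1:82291535-82291594, positions -155 to -96: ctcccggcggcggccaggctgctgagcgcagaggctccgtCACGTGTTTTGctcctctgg
Irs2, chr8:11008935-11008994, positions -65 to -6: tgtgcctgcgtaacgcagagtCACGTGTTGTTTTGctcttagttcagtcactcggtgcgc
In Irs1 the E-box and the core overlap, and in Irs2 a single base separates them. Of 32851 promoter windows of this length, 7.15% held CACGTG, 6.28% held TGTTTTG and 0.408% held both. The third motif searched, the forkhead site GTAAACA, was in none of the 12 windows and in 3.65% of all. The pairing of the motifs was noticed in these sequences first and counted afterwards, and it describes letters, not binding.

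Irs2 rose in males from p21 to p28 with SW. The p21 males were at 26.1, 33.4, 18.0 and 24.2, and the SW males at 26.1, 44.3, 45.5 and 57.6. Of the 4 SW males, 3 were above every p21 male, and SW male 78 lay among them. The change was 0.73 (SE 0.21, adjusted p = 0.0277), a 1.65-fold rise. Leaving out p21 male 53 or 54 or SW male 84, 85 or 124 ended the call, with an adjusted p of up to 0.0988. With the muscle score as a covariate it was 0.49 (adjusted p = 0.345), and without p21 male 53 and SW male 84 it was 0.55 (adjusted p = 0.179).

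After DW the male values of Irs2 were 36.3, 35.3, 39.6 and 39.0, close together and all above the 4 p21 males, as groups did not overlap for 23.1% of all genes. The change from p21 was 0.57 and missed the threshold (adjusted p = 0.0687). In females Irs2 stayed between 22.6 and 39.0 after DW and between 22.6 and 38.1 after SW, around p21 values of 27.9, 37.0, 29.3 and 27.6. The female change from p21 to p28 with SW was 0.075, with a 95% interval from -0.36 to 0.51. The male change exceeded the female one by 0.65, and this difference was not called (adjusted p = 0.561).

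Irs1 had lower mean values after DW in both sexes, without a call. The SW males were at 131, 161, 157 and 146 and the DW males at 87.4, 108, 125 and 138. The SW females were at 159, 205, 116 and 145 and the DW females at 94.0, 113, 107 and 128. In males DW male 87 was the 1 DW animal above the lowest SW animal, and in females DW female 83 was. Averaged over the sexes the change was -0.43 (SE 0.15, adjusted p = 0.146), and the 95% interval ran from -0.74 to -0.12. The log2 ratio of Irs1 to Irs2 was 2.26 ± 0.18 in SW females and 1.83 ± 0.15 in DW females, and 1.83 ± 0.40 in SW males and 1.59 ± 0.23 in DW males (mean ± SD, n = 4, values without pseudocount, not tested).

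Pik3r1 (chr13:101680563-101768217 of GRCm38, minus strand) encodes p85α, the regulatory subunit that docks PI3K on the substrates, and it was among the most variable of the members between animals. The p21 females were at 785, 236, 316 and 462, the SW females at 190.0, 207, 186 and 169, and the DW females at 296, 497, 281 and 345. The SW females lay below all p21 and all DW females. Groups did not overlap for 21.5% of all tested genes between SW and p21 females and for 5.79% between DW and SW females. From p21 to p28 with SW, Pik3r1 fell by 1.11 in females (SE 0.36, adjusted p = 0.0488, 2.15-fold). The call held in 1 of 8 fits that left out 1 animal each, the one without p21 female 36, and in the others the adjusted p reached 0.193. It was not called with the muscle score (-1.06, adjusted p = 0.131) or the brown and beige score (-1.10, adjusted p = 0.054) as a covariate.

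DW females were higher than SW females in Pik3r1 by 0.88, with a 95% interval from 0.13 to 1.63, which was not called (adjusted p = 0.217). In males the 3 groups covered the same range, from 147 to 465 over 12 animals, and the weaning change was 0.063, from -0.68 to 0.81. The other regulatory subunits were less abundant: Pik3r2 had group means of 27.9 in p21 females and 19.5 in DW females, where animals 82 and 83 were at 13.0 and 8.54.

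Akt2 (chr7:27591552-27640826 of GRCm38, plus strand) encodes the Akt kinase that insulin uses to move GLUT4 in fat and muscle. Its group means spanned a narrow range, from 204 ± 18.1 (SD, n = 4) in DW females to 269 ± 26.7 (SD, n = 4) in SW males. The p21 females were at 248, 284, 239 and 254 and the DW females at 212, 221, 203 and 179, and these groups did not overlap, as for 15.1% of all genes. Akt2 fell by 0.33 (SE 0.11, adjusted p = 0.0493). Without DW females 82 and 83 the change was -0.24 (adjusted p = 0.268), and leaving out either of them, or any 1 p21 female, also ended the call (adjusted p up to 0.169). EdgeR on the recovered reads did not call the fall of Akt2 (adjusted p = 0.0725), nor did limma with the brown and beige score as a covariate (-0.25, adjusted p = 0.199).

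The related kinase gene Akt1, the isoform linked to growth, was at 89.7, 92.0, 54.0 and 36.6 in DW females, against 109, 129.9, 102 and 113 in p21 females. Akt1 fell by 0.82 (adjusted p = 0.0141), and the change was -0.31 (adjusted p = 0.276) without animals 82 and 83.

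Foxo1 (chr3:52268336-52353221 of GRCm38, plus strand) encodes the transcription factor that Akt keeps out of the nucleus. It fell from p21 to p28 in SW females. The p21 females were at 139, 123, 183 and 174 and the SW females at 104, 109, 139 and 89.1, with SW female 75 inside the p21 range. Foxo1 fell by 0.49 (SE 0.14, adjusted p = 0.025, 1.40-fold). Leaving out p21 female 55 or 56 or SW female 73, 74 or 81 ended the call, with an adjusted p of up to 0.11, and with the muscle score as a covariate it was -0.38 (adjusted p = 0.154).

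In males Foxo1 was at 175, 162, 166 and 147 at p21, 108, 158, 130.4 and 115 after SW and 146, 150.2, 175 and 162 after DW. Of the 4 SW males, 3 were below every p21 male and every DW male, and SW male 84 was within both ranges. The difference between DW and SW males was 0.32 (95% interval from 0.026 to 0.61, adjusted p = 0.674), so it was not called. The change from p21 to DW in males was -0.038, from -0.33 to 0.25.

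Tbc1d4 (chr14:101442360-101609191 of GRCm38, minus strand) encodes AS160, the brake on GLUT4 vesicles that Akt releases, and it was lower at p28 than at p21 in each of the 4 age comparisons, 3 of which called it. The p21 males were at 141, 108, 109 and 96.5, the SW males at 69.998, 99.6, 83.8 and 85.5 and the DW males at 81.6, 74.5, 76.6 and 84.4. All 4 DW males lay below all 4 p21 males, as groups did not overlap for 23.1% of all genes. Of the SW males, animal 84 alone reached into the p21 range. From p21, Tbc1d4 fell by 0.42 in SW males (SE 0.13, adjusted p = 0.043) and by 0.50 in DW males (SE 0.13, adjusted p = 0.0146). The SW call ended without any 1 of SW males 78, 85 and 124 and p21 males 37, 38 and 53 (adjusted p up to 0.137), and the DW call held in 8 of 8 such fits.

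In females Tbc1d4 was at 118, 128, 107 and 108 at p21 and at 93.9, 89.8, 73.6 and 81.0 after SW. Each SW female was below each p21 female, as groups did not overlap for 21.5% of all genes. Tbc1d4 fell by 0.44 (SE 0.13, adjusted p = 0.0304). Leaving out SW female 75 or 81 or p21 female 30 or 36 ended that call (adjusted p up to 0.102). The DW females were at 70.7, 78.2, 104 and 103, with animals 82 and 83 the highest. Each DW female was also below each p21 female, as groups did not overlap for 15.1% of all genes. The change of the DW females from p21 was -0.39 (adjusted p = 0.0587), and without animals 82 and 83 it was -0.62 (adjusted p = 0.00835). The falls in SW males and SW females were not called with the muscle score as a covariate (-0.46, adjusted p = 0.157, and -0.47, adjusted p = 0.06). In SW males the fall was also not called by edgeR with TMM or DESeq2 size factors, or by limma on the compared groups alone. Nor was it called with the fat cell score or the brown and beige score as a covariate (adjusted p up to 0.536). The fall in DW males was not called with the muscle score as a covariate (-0.54, adjusted p = 0.0701) or with the fat cell score (-0.42, adjusted p = 0.349). Of 6 macrophage markers, 5 rose in SW males, 6 in DW males, 4 in SW females and 5 in DW females over the same week. Their summed value was 293 to 433 in p21 males and 707 to 786 in DW males, and their part in the result was not tested. The related gene Tbc1d1 was less abundant, at 20.5 to 30.6 in all 24 animals.

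Slc2a4 (chr11:69942539-69948188 of GRCm38, minus strand) encodes GLUT4, the transporter that insulin brings to the surface of fat and muscle cells. The SW males were at 232, 236, 243 and 188 and the DW males at 147, 155, 171 and 168, so each DW male was below each SW male, as groups did not overlap for 8.73% of all genes. In females the SW animals were at 234, 299.7, 209 and 239 and the DW animals at 184, 175, 260.3 and 185. Of the 4 DW females, 3 were below every SW female and animal 82 was above 3 of them. The change was -0.48 in males (SE 0.14, adjusted p = 0.218) and -0.29 in females (SE 0.14, adjusted p = 0.254). Averaged over the sexes Slc2a4 fell by 0.39 (SE 0.10, adjusted p = 0.0332, 1.31-fold), and the difference between the sexes was not called (adjusted p = 0.82).

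Without DW females 82 and 83 Slc2a4 fell by 0.46 (adjusted p = 0.0149), and without p21 male 53 and SW male 84 the change was -0.37 and not called (adjusted p = 0.0615). Of 16 fits without 1 animal, 7 called it, with adjusted p from 0.00755 to 0.0798. The call ended without any 1 of SW males 78, 84 and 85, DW males 79 and 80, SW females 74 and 81 and DW females 77 and 83. The labels do not say what the animal numbers stand for. At p28 they run unbroken from 73 to 87, apart from SW male 124, and were cut here after 80. SW male 124, the lowest SW male at 188, is in neither part. Between DW and SW animals numbered 73 to 80 the difference in Slc2a4 was -0.62 in males and -0.45 in females, and between those numbered 81 to 87 it was -0.49 in males and -0.12 in females, with 1 to 3 animals on a side. The mean log2 level of 7 markers of brown and beige fat cells was also lower after DW, at 5.29 against 5.93 in males and 5.23 against 5.70 in females. Their summed value was 844 to 1426 in SW males, 531 to 894 in DW males, 613 to 1159 in SW females and 362 to 956 in DW females, with 1 of the 7 called lower in each sex and none at 0. With that score as a covariate the change of Slc2a4 was -0.29 (adjusted p = 0.605), and with the muscle score it was -0.36 (adjusted p = 0.0964). The brown and beige score itself was lower after DW, so a fit with it also takes out part of any weaning difference. The part of brown and beige fat cells in the result was not tested.

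From p21 to p28 with SW, Slc2a4 changed by 0.15 in males and 0.025 in females, with 95% intervals from -0.13 to 0.43 and from -0.26 to 0.31. The p21 values were 164, 227, 191 and 228 in males and 236, 277, 224 and 223 in females. With DW the change from p21 was -0.33 in males (adjusted p = 0.107) and -0.27 in females (adjusted p = 0.205), neither of them called. Slc2a1, the gene of the insulin-independent transporter GLUT1, had values from 6.47 to 15.2 in all 24 animals, and its lowest values were those of DW females 83 and 82. By Spearman's rho over 24 animals the genes most like Slc2a4 were Ptges (0.83), Tor1a (0.82), Nt5m (0.82), Derl1 (0.82) and Hsd17b12 (0.81), a ranking over all tested genes that carries no test.

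Hk2 (chr6:82725025-82774454 of GRCm38, minus strand) encodes hexokinase 2, the insulin-responsive enzyme that traps glucose in fat and muscle. Its highest group mean was in p21 females, 236 ± 37.3 (SD, n = 4), and its lowest in SW males, 151 ± 35.2 (SD, n = 4). The p21 females were at 255, 181, 264 and 242, the SW females at 170.5, 221, 158 and 129 and the DW females at 151, 181, 189.9 and 150.4. In each p28 group of females 1 of 4 animals was above p21 female 36, the lowest of its group. The changes from p21 were -0.48 with SW (adjusted p = 0.103) and -0.48 with DW (adjusted p = 0.0963), neither called. With the brown and beige score as a covariate the SW change was -0.49 and was called (adjusted p = 0.0386). Hk1, the isoform of most tissues, was lower than Hk2 in every animal, and the log2 ratio of Hk2 to Hk1 ran from 1.49 ± 0.15 in DW males to 2.27 ± 0.45 in p21 females (mean ± SD, n = 4, not tested).

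Pdk4 (chr6:5483351-5496309 of GRCm38, minus strand) encodes the pyruvate dehydrogenase kinase that fasting and FoxO1 are known to raise and insulin to lower. The p21 males were at 261, 255, 188 and 251, the SW males at 280.0, 476, 369 and 453 and the DW males at 216, 377, 605 and 625. All 4 SW males were above all 4 p21 males, as groups did not overlap for 16.2% of all genes, while DW male 79 lay inside the p21 range and DW males 86 and 87 had the highest values of all 24 animals. The change from p21 was 0.70 with SW (adjusted p = 0.174) and 0.82 with DW (adjusted p = 0.0974). With the muscle score as a covariate they were 0.37 and 0.50. Neither was called by limma, and DESeq2 called the DW change (0.93, adjusted p = 0.0226).

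In females Pdk4 was at 166, 421, 305 and 199 at p21, 227, 230.4, 123 and 266 after SW and 189, 188, 321 and 375 after DW. The 3 female groups overlapped. The change from p21 to SW was -0.32 (95% interval from -1.01 to 0.36) and that from SW to DW 0.33 (from -0.36 to 1.01). In each p28 group the mean log2(value + 1) level of Pdk4 was higher in animals 81 to 87 than in 73 to 80. It was 9.27 against 8.16 in DW males and 8.71 against 8.13 in SW males. In females it was 8.44 against 7.57 after DW and 8.06 against 7.55 after SW. Each part held 1 to 3 animals, and what the numbers stand for was not tested. Of the other kinases, Pdk1 rose with SW by 0.49 in males (adjusted p = 0.0118) and 0.39 in females (adjusted p = 0.038), and Pdk3 fell by 0.57 in SW males (adjusted p = 0.0442). Without p21 male 53 and SW male 84 neither male call was made, with a change of 0.47 in Pdk1 (adjusted p = 0.055) and -0.39 in Pdk3 (adjusted p = 0.106). Pdk3 was at 14.1 in p21 male 53 and at 5.84 to 7.32 in the other p21 males. The genes most like Pdk4 by Spearman's rho over 24 animals were Pde4d (0.81), Tsc1 (0.81), Btbd8 (0.80), Adck2 (0.79) and Taf1b (0.78), again with no test.

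Males and females did not differ by a call in any member: 0 of 10 at p21, where 0.356% of all genes were called, 0 of 10 at p28 after SW (3.54%) and 0 of 10 at p28 after DW (2.46%). At an unadjusted p under 0.05 the counts were 0, 2 and 4 of 10, beside 8.60%, 9.16% and 19.7% of all genes. EdgeR and DESeq2 called 0 of 10 in each, where over all genes edgeR called 15, 422 and 382 and DESeq2 115, 564 and 848. The largest sex difference was in Pdk4 after SW, where each of the 4 males was above each of the 4 females (groups did not overlap for 7.77% of genes) and the difference, males minus females, was 0.92 (SE 0.33, adjusted p = 0.198). After DW the groups of Slc2a4, Akt2 and Foxo1 did not overlap, as for 10.9% of all genes, and males minus females was -0.31 in Slc2a4, 0.27 in Akt2 and 0.39 in Foxo1. The smallest adjusted p of these 3 was that of Foxo1, 0.14.

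The difference between the sexes in the change from p21 to SW was tested as an interaction. No member was called (0 of 10, against 1.03% of all genes), and 3 of 10 had an unadjusted p under 0.05, beside 8.15% of all genes. EdgeR and DESeq2 called 0 of 10, where they called 4 and 107 of all genes. All 10 estimates were positive, meaning a more positive change in males, with a median of 0.26 against -0.002 over all genes. The largest were Pdk4 at 1.03 (adjusted p = 0.558) and Pik3r1 at 0.99 (adjusted p = 0.666). At p21 males minus females was negative in 9 of the 10 members, with a median of -0.19. After SW it was positive in 6 and negative in 4, with a median of 0.17. The same 16 animals give all 10 interaction estimates, so the shared sign is a description. Marker lists moved with it: the median of 8 fat cell markers in this interaction was 0.51 and that of 10 skeletal muscle markers 2.02, with 0 of either list called. The mean log2 level of the fat cell markers was 10.19 at p21 and 10.68 after SW in males, and 10.46 and 10.42 in females. Their part in the result was not tested. For weaning, the interaction called 0 of 10 members, against 0.0187% of all genes, with 0 of 10 at an unadjusted p under 0.05, beside 5.09% of all genes. EdgeR and DESeq2 called 0 of 10 members there, and 0 and 1 of all genes.

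Of the 45 pairs of members, Irs2 and Pdk4 had the highest correlation over all 24 animals. Pearson's r of the log2(value + 1) levels was 0.69 (permutation p = 0.00013, adjusted over 45 pairs 0.00585) and Spearman's rho 0.70 (permutation p = 0.00019, adjusted 0.00855). These p-values treat the 24 animals as exchangeable although they come from 6 groups. With each group's mean removed r was 0.64, below the 0.68 of Insr with Tbc1d4 and of Insr with Irs1 on that measure. Within 12 males r of Irs2 and Pdk4 was 0.72, where that of Insr and Pdk4 was 0.76. Within 12 females r of Irs2 and Pdk4 was 0.70, and over all groups without the 2 animals farthest from the median of Irs2 it was 0.68. No other pair passed an adjusted p of 0.05 by either coefficient. The share of gene pairs outside the members with such a correlation was not counted. Pde4d, Tsc1, Btbd8, Adck2 and Taf1b had a higher rho with Pdk4 (0.78 to 0.81), so the correlation is not particular to Irs2. All values of a library share its depth and tissue makeup. In each p28 group the mean log2 levels of both Irs2 and Pdk4 were higher in animals numbered 81 to 87 than in 73 to 80. The part of this in their correlation was not tested.

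**Figure D3:**
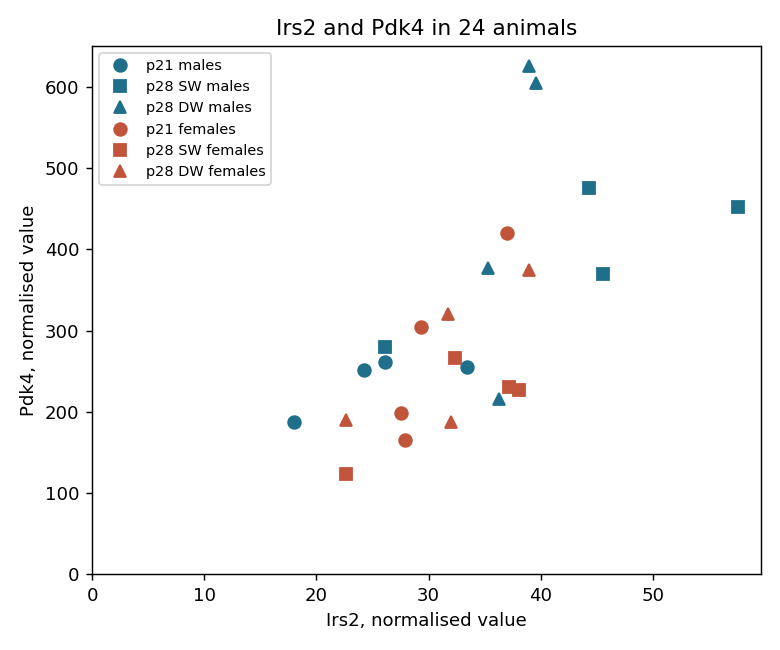
Normalised value of Pdk4 (y axis) against that of Irs2 (x axis), both linear from 0, with 1 point for each of 24 animals, coloured by sex and shaped by group. DW males 86 and 87 lie above the other animals in Pdk4, and SW male 124 lies farthest right in Irs2.

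The other genes of the pathway were followed in 9 lists that together hold 117 genes with the 10 members, all of which were tested. The lists were written with earlier results of these data known, so the share called in a list is a description. For weaning 0 of 117 were called in males and 1 of 117 in females, Gpi1 (phosphoglucose isomerase), which fell by 0.88 (adjusted p = 0.0478). Without DW females 82 and 83 that change was -0.44 (adjusted p = 0.932), and without p21 male 53 and SW male 84 it was -0.88 (adjusted p = 0.0501). Averaged over the sexes 4 of 117 fell after DW and 0 rose, where 1.01% of all genes fell and 1.19% rose: Slc2a4, Gpi1 (-0.73, adjusted p = 0.0112), Aldoa, an aldolase of glycolysis (-0.64, adjusted p = 0.0228), and Mlxipl, the glucose-sensing factor ChREBP (-0.66, adjusted p = 0.0213). With the brown and beige score, which was itself lower after DW, as a covariate 0 of these 4 were called. Without DW females 82 and 83, 5 of 117 were called, all lower, and Slc2a4 was the 1 of the 4 among them.

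From p21 to p28 with SW, 16 of 117 genes rose and 4 fell in males, and 7 rose and 8 fell in females. Over all tested genes 6.9% rose and 4.97% fell in males, and 7.39% rose and 4.23% fell in females. Lipogenic genes that insulin induces gave the largest share: 4 of 10 rose in males and 3 of 10 in females, with Scd1, a fatty acid desaturase, up by 1.86 (adjusted p = 0.00535) and 1.98 (adjusted p = 0.00234) and Elovl6, a fatty acid elongase, up by 1.66 and 1.98. The median change of that list was 0.56 in males and 0.68 in females, beside the all-gene medians of 0.015 and 0.012. Of the 14 PI3K and Akt genes, Pik3cb, the p110β catalytic subunit, rose in males (0.65) and in females (0.51), beside the fall of Pik3r1 in females. Of 18 genes of transport and GLUT4 traffic, Sort1 (sortilin, which sorts GLUT4 into its vesicles) rose in males (0.50), and Slc2a3 (-0.65) and the motor gene Myo1c (-0.43) fell in females together with Tbc1d4.

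Pck1, the gene of the enzyme PEPCK and a known FoxO target, rose by 1.42 in SW males (adjusted p = 0.000322) and 1.44 in DW males (adjusted p = 0.000357). It was the 1 gene of 117 higher in males than in females, by 0.84 after SW (adjusted p = 0.0299) and 0.85 after DW (adjusted p = 0.0386). The SW difference was not called without p21 male 53 and SW male 84 (0.83, adjusted p = 0.0649), nor the DW difference without DW females 82 and 83 (0.95, adjusted p = 0.101). Of 16 glycolysis genes 3 rose in males with SW, Pfkm, Hk3 and Pfkfb3, and of 11 glycogen genes Pygm, the muscle glycogen phosphorylase, rose most, by 2.66 (adjusted p = 0.0337). Muscle markers rose in the same comparison, and with their score as a covariate Pygm changed by 0.0026 and 3 of the 20 calls in SW males were still made. Without p21 male 53 and SW male 84, 10 of the 20 were still called, and Sort1 (0.36, adjusted p = 0.0608) and Hk3 (0.52, adjusted p = 0.183) were not.

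With DW, 13 of 117 genes rose and 9 fell in males and 4 rose and 15 fell in females, where 8.86% and 6.1% of all genes did in males and 5.95% and 6.16% in females. In DW males Scd1 was the 1 lipogenic gene of 10 called, up by 1.95 (adjusted p = 0.00366), and Sort1 rose (0.64). In DW females 2 of the 10 lipogenic genes were called higher and 1 lower. Between DW and SW animals 0 of these 10 were called in males or in females, where 0.256% and 1.27% of all genes were. Of the 22 calls in DW males 10 were still made without p21 male 53 and SW male 84, with Scd1 and Sort1 among them. Of the 10 muscle markers 8 were higher in this comparison as well, and with their score as a covariate 5 of the 22 calls were made. In DW females 4 of 11 genes of the pyruvate dehydrogenase switch fell: Pdk2 (-0.89), the phosphatase gene Pdp2 (-0.64), and the complex subunits Dld (-0.47) and Pdhx (-0.38). Gys1, the glycogen synthase of fat and muscle, fell by 0.79 (adjusted p = 0.000873). Of the 19 calls in DW females 6 were still made without animals 82 and 83, and Pdk2, at 59.9 and 52.1 in those animals and 170.4 and 147 in the other pair, was not among them (adjusted p = 0.747). For Pdp2, Dld, Pdhx and Gys1 the outcome without these animals is not given here, so their falls cannot be taken as independent of them.

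**Figure D4:**
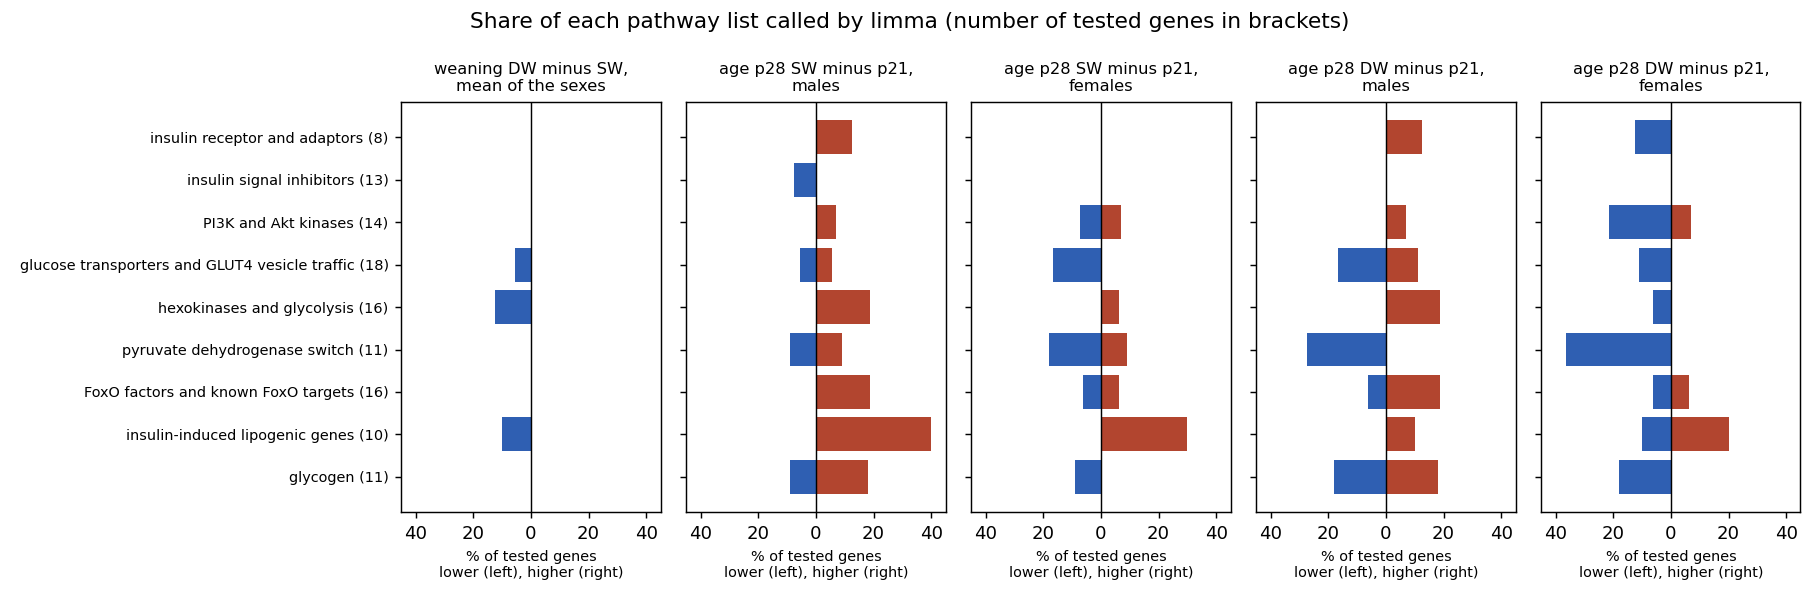
Share of the genes of each list (y axis, number of genes in brackets) called by limma as lower (left of 0) or higher (right of 0), in % of tested genes (x axis), for weaning averaged over the sexes and the 4 age comparisons. Lipogenic genes reach 4 of 10 higher in SW males, and the pyruvate dehydrogenase list 4 of 11 lower in DW females. Among the latter, Pdk2 was not called without DW females 82 and 83, and the outcome for the other called genes of that list is not given.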

How the data were processed

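Poly(A) RNA libraries of 24 mice (KAPA mRNA HyperPrep, NovaSeqXPlus, per the labels' protocols) were made by the authors, who deposited a normalised signal per gene, the reads divided by 1 factor per library. The submitters' processing notes name fastp, HISAT2, featureCounts, DESeq2 1.38.3 and the build mm10. All deposited values were whole multiples of a library's smallest value (100%, tolerance 1e-06), so whole reads were recovered. This scaling was 0.972 to 1.04 times that of TMM. Of 16208 rows, 90 repeats were left out. Deposited gene starts equal those of GENCODE M21 (GRCm38) for 2.23% of 16095 genes, so positions and exon lengths come from GENCODE M21 by Ensembl identifier. Replicates differed by more than sampling noise in all 36 pairs. Groups came from the labels, and no animals are paired.

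Genes were kept by filterByExpr (minimum count 10 in recovered reads). Limma 3.58.1 (R 4.3.3, variance trend) was fitted on log2(value + 1) over all 24 samples, with 6 group means and 18 residual degrees of freedom. P-values were adjusted by Benjamini-Hochberg over 16005 genes. The log2 scale with a pseudocount of 1 understates changes of low genes. The design named limma for normalized values with recoverable reads, and edgeR 4.0.16 and DESeq2 1.42.0 on the recovered reads were alternatives. Limma, edgeR and DESeq2 were also run on simulated reads with changes planted in DW males alone. That simulation held no outlying libraries or differences in tissue makeup, so it does not show how the tools behave on these data. The other alternatives were no filter, a pseudocount of 0.1, the compared groups alone, marker scores as covariates, and leaving out animals. A marker score averages log2(value + 1) over the genes of a list. Members and lists were chosen with earlier results of these data known. All members are named; of each list, called genes with the largest changes and relatives of the members are. The authors' own comparison columns were not used here.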

Additional observations from a re-analysis of the deposited data

Results flagged for a closer look

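In each of the 10 genes and 6 groups, the animal at either end was compared with its neighbour by Dixon's ratio, the gap divided by the range of the 4 animals. Of 60 such groups 2 exceeded the 95% critical value of 0.829, and chance gives about 3. Slc2a4 in DW female 82 was 260.3, far above the 175 to 185 of the other 3 DW females. Pdk4 in p21 male 53 was 188, below the 251 to 261 of the other 3 p21 males. P21 male 53 is also the library with the fewest detected genes, and DW female 82 is among those that lie apart from the rest.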

How the results depend on the processing

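Under 10 alternatives that kept all animals or left out p21 male 53 and SW male 84, and 1 chosen after seeing the data (without DW females 82 and 83), no called member changed direction. The number of members called moved as follows. For weaning averaged over the sexes (1 called), edgeR with TMM, the muscle score, the brown and beige score, and leaving out p21 male 53 and SW male 84 each gave 0, and leaving out 1 animal gave 0 to 1. From p21 to SW in males (2 called), edgeR with TMM, edgeR with DESeq2 size factors, the brown and beige score, and leaving out p21 male 53 and SW male 84 gave 1, the compared groups alone, the muscle score and the fat cell score gave 0, and leaving out 1 animal gave 0 to 2. In SW males both edgeR fits and the brown and beige score lost Tbc1d4, and leaving out p21 male 53 and SW male 84 lost Irs2. In SW females (3 called) the muscle score gave 0 and leaving out 1 animal gave 0 to 2. There edgeR with DESeq2 size factors lost Tbc1d4, the compared groups alone lost Foxo1, and the brown and beige score called Hk2 in place of Pik3r1. In DW males (1 called) DESeq2 gave 2 (Tbc1d4 and Pdk4) and the compared groups alone gave 2 (Irs2 and Tbc1d4), the muscle and fat cell scores gave 0, and leaving out 1 animal gave 1 to 2. In DW females (1 called) edgeR with TMM, edgeR with DESeq2 size factors, a pseudocount of 0.1, the compared groups alone, the muscle score and the fat cell score gave 0, and leaving out 1 animal gave 0 to 1. Without DW females 82 and 83, and with the brown and beige score, the 1 call there was Tbc1d4 in place of Akt2. The cause of these moves was not tested. For weaning in each sex, for sex and for both interactions, each of these alternatives gave 0, and leaving out 1 animal 0 to 0. No scaling moved the median of all genes by 0.1 or more. The fewest reads of a member in any library were 1169. What the spread among 4 animals contributes to the missing and moving calls was not tested. No paired analysis was possible because animal numbers are not shared between groups.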
